A study of Oryza sativa with 11 samples.

Results

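The plasma membrane intrinsic proteins (PIPs) are the aquaporins of the plant cell surface, and 10 rice genes for them, PIP1-1 to PIP1-3 and PIP2-1 to PIP2-7, were followed through anther development. They were chosen by locus ID among the 55986 loci of the deposited expression table. The rule uses no expression value, but it was set with earlier results of these data known. The names are written here with a hyphen, as RefSeq lists them beside the form with a semicolon. RNA of whole anthers from untreated, field-grown rice (Oryza sativa) was sequenced in 4 groups, namely the wild type (WT) at anther stage 10 and at stage 12 and the ostie1-1 mutant at the same stages. Both WT groups and the stage 10 mutant group comprised 3 libraries each, and the stage 12 mutant group 2. The mutant is named for OsTIE1, which represses transcription and which the study ties to jasmonate synthesis, pollen release and male fertility. Its own transcript was not examined here, since no locus ID for it was given. The nature of the allele, the rice cultivar and whether 1 or several mutant lines were used are not given in the sources used here. Libraries were made from whole anthers, so a lower level can come from fewer cells of a type or from less RNA per cell, and the measurements cannot tell these apart.

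Aquaporins are membrane channels that let water, and in some cases other small molecules, cross a membrane along its gradient. PIPs assemble as tetramers and fall into the PIP1 and PIP2 subgroups. PIP2 proteins typically form efficient water channels on their own, whereas PIP1 proteins often need a PIP2 partner to reach the plasma membrane and conduct water. Before an anther opens, the locule loses its fluid and the wall tissues dry, so channels that move water between anther cells are of interest at the stages just before dehiscence.

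The unit of the table is FPKM, a read density corrected for transcript length and sequencing depth, summed here over the transcript models of a locus. Sums per library ranged from 749507 to 845797 FPKM, and relative depths from 0.914 to 1.17. The label "anther" was checked with 2 marker lists. All 8 tapetum genes were measured, and their summed level was 5674 to 13950 FPKM at stage 10 in ostie1-1 and 8219 to 11220 in WT. The gene C6 made up most of these sums, at 5220 to 13210 FPKM in ostie1-1 and 7964 to 10460 in WT. The sums therefore say little of the other tapetum genes. All 6 late pollen genes were measured, and 5 of 6 rose from stage 10 to 12 in each genotype, against 2.11% of all tested loci in WT and 7.78% in ostie1-1. In ostie1-1 these include a beta-expansin gene (LOC_Os03g01630) that reached 1 FPKM only at stage 12. Testing required 1 FPKM in at least 2 libraries, so this gene was tested only through the stage where it is high. Its call is not read as support for the label. WT stage 10 replicate 3 stood apart from its group, with a correlation of log2 levels of 0.79 and 0.80 with the other 2 libraries and of 0.88 to 0.90 with ostie1-1 at stage 10. Its summed green tissue markers were at 1424 FPKM against 85.4 and 71.3 in WT stage 10 replicates 1 and 2, and its summed vascular cellulose synthases at 284 FPKM against 21.3 and 26.3. Of the 6 green tissue markers, 2 Rubisco small subunit loci were at or near 0 in every library, among them LOC_Os12g17600 at 0 throughout. The tests below that rest on this library are given with and without it.

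The 10 genes differed by orders of magnitude, and PIP2-7 (LOC_Os09g36930) and PIP1-2 (LOC_Os04g47220) had the highest listed values among them in every library. Together they held 85.3% to 99.3% of the listed FPKM of the 10 genes, a sum that takes PIP2-1, PIP1-1 and PIP2-2, which have several transcript models, at their listed values. PIP2-7, studied in rice mainly under chilling and in arsenite transport, measured 386, 495 and 1717 FPKM in WT at stage 10 (replicates 1 to 3) and 1116, 1834 and 1941 FPKM in ostie1-1 at stage 10. The stage 12 values were 292, 261 and 113 FPKM in WT and 265 and 439 FPKM in ostie1-1. It was thus highest in the mutant at stage 10 and in WT stage 10 replicate 3. Within each genotype every stage 12 value of PIP2-7 was below every stage 10 value, as for 6.75% of all tested loci in WT and 20.1% in ostie1-1. By level PIP2-7 ranked between 24 and 57 among all loci in the stage 10 mutant libraries, 32 in WT stage 10 replicate 3, and between 183 and 1196 in the others.

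PIP1-2 measured 135, 126 and 1754 FPKM in WT at stage 10 and 205, 69.8 and 33.7 FPKM in ostie1-1. Later, at stage 12, the values were 112, 155 and 190 FPKM in WT and 47.4 and 85.7 FPKM in ostie1-1. The single value of 1754 FPKM was 13.0 times the next highest in its group, and the stage 10 groups overlapped. PIP2-7 exceeded PIP1-2 in 9 of 11 libraries. The 2 exceptions were both WT, namely stage 10 replicate 3 and stage 12 replicate 3, so the order of these neighbours was not fixed in WT.

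**Figure D1:**
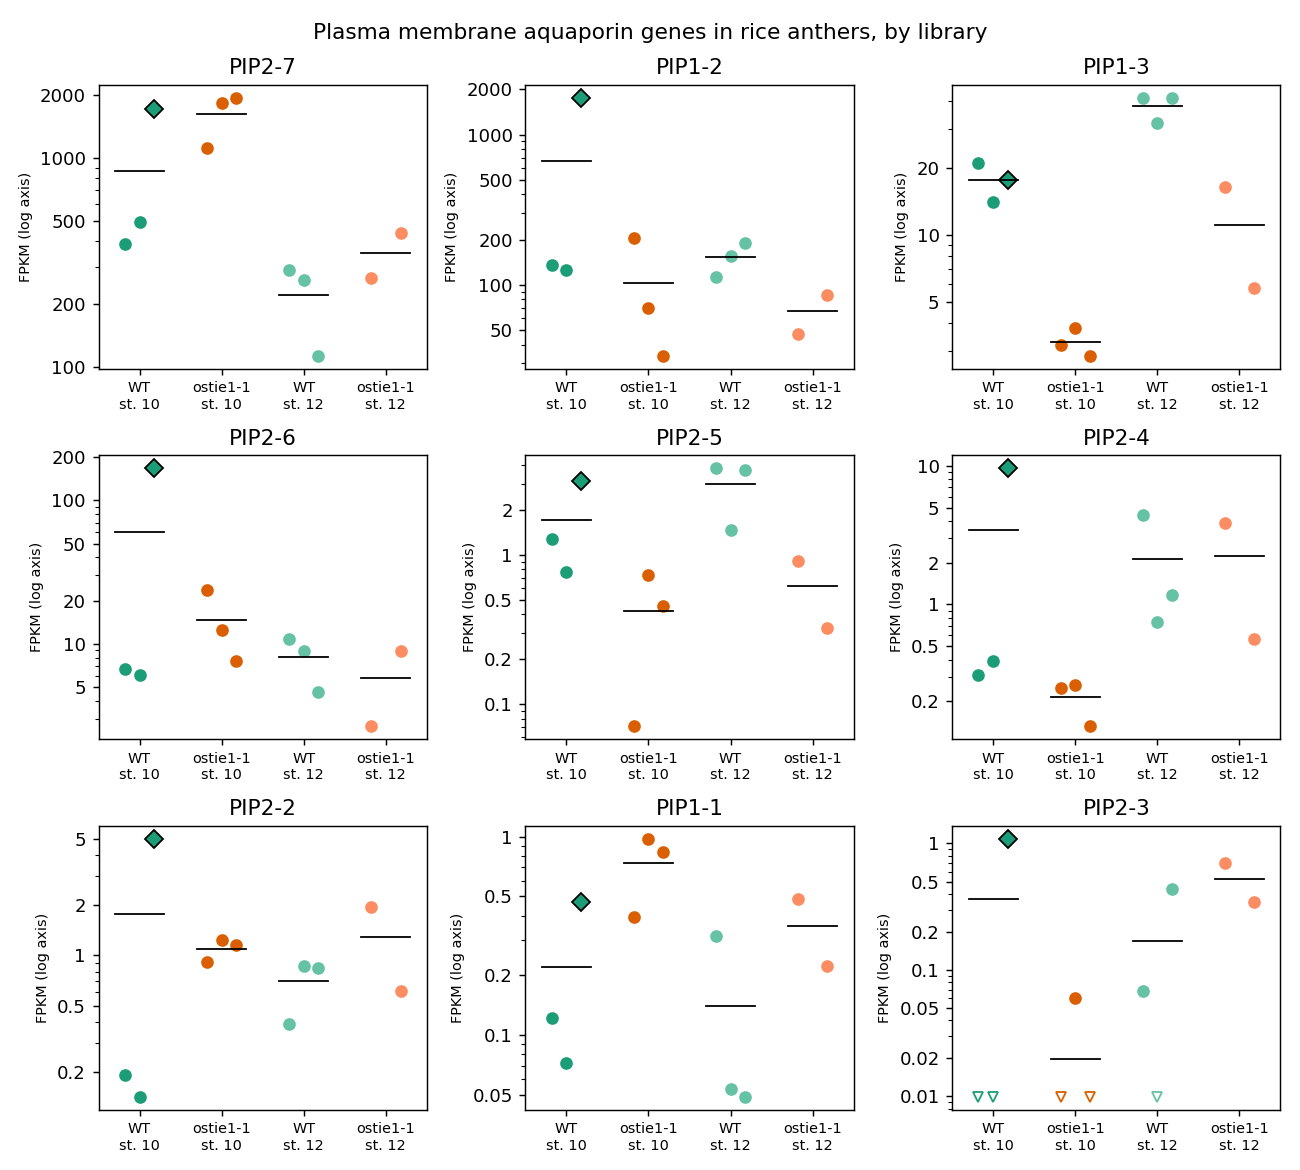
FPKM of 9 PIP genes in each library (log axis, one panel per gene, own scale), by group, with stage abbreviated st. Points are libraries, the outlined diamond is WT stage 10 replicate 3, horizontal lines are group means, and open triangles mark libraries where PIP2-3 is listed at 0. PIP1-3 is at 2.85 to 3.82 FPKM in ostie1-1 at stage 10 and at 14.1 to 21.2 in WT. PIP2-1 is at 0 in every library and has no panel.

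PIP1-3 (LOC_Os02g57720, also known as the water channel RWC3, studied mostly in roots and under drought) and PIP2-6 (LOC_Os04g16450, one of the rice PIPs implicated in arsenite transport) formed the middle of the range. PIP1-3 measured 21.2, 14.1 and 17.6 FPKM in WT at stage 10 and 3.19, 3.82 and 2.85 FPKM in ostie1-1. Stage 12 gave 41.4, 31.8 and 41.3 FPKM in WT and 16.4 and 5.76 FPKM in ostie1-1. Both mutant groups lay wholly below the WT group of the same stage, as did 6.67% of all tested loci at stage 10 and 31.8% at stage 12.

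PIP2-6 measured 6.63, 6.07 and 168 FPKM in WT at stage 10 and 23.8, 12.5 and 7.61 FPKM in ostie1-1. In the stage 12 libraries it measured 10.8, 8.95 and 4.63 FPKM in WT and 2.65 and 8.95 FPKM in ostie1-1. Apart from 168 FPKM in WT stage 10 replicate 3, all values lay between 2.65 and 23.8 FPKM, and the groups overlapped at both stages. PIP1-2 was above PIP1-3 in 11 of 11 libraries, whereas PIP1-3 was above PIP2-6 in 6 of 11 and below it in all 3 stage 10 mutant libraries.

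PIP2-4 (LOC_Os07g26630), PIP2-5 (LOC_Os07g26660) and PIP2-2 (LOC_Os02g41860) had listed values below 10 FPKM in every library. PIP2-4 measured 0.308, 0.393 and 9.62 FPKM in WT at stage 10, 0.248, 0.262 and 0.132 in ostie1-1 at stage 10, 4.45, 0.742 and 1.17 in WT at stage 12, and 3.91 and 0.562 in ostie1-1 at stage 12. PIP2-5, known mainly from roots, measured 1.27, 0.763 and 3.15 FPKM in WT at stage 10, 0.0711, 0.735 and 0.452 in ostie1-1, 3.80, 1.47 and 3.70 in WT at stage 12, and 0.908 and 0.322 in ostie1-1. As deposited, PIP2-5 was therefore lower in every mutant library than in any WT library of its stage. Of all tested loci, 6.67% were so at stage 10 and 31.8% at stage 12. The nearest stage 10 values were 0.735 and 0.763 FPKM, and after scaling the stage 10 groups overlapped.

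PIP2-2 measured 0.191, 0.142 and 4.999 FPKM in WT at stage 10, 0.909, 1.23 and 1.15 in ostie1-1, 0.389, 0.870 and 0.839 in WT at stage 12, and 1.96 and 0.611 in ostie1-1. The high value again lay in WT stage 10 replicate 3. By listed value PIP2-6 was above PIP2-5 in 11 of 11 libraries and PIP2-2 above PIP1-1 in 11 of 11. PIP2-5 led PIP2-4 in 6 of 11 libraries and PIP2-4 led PIP2-2 in 6 of 11, so the listed values of these 3 had no fixed order. PIP2-2 and PIP1-1 have several transcript models, so their places in this order are not read as relative expression.

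The remaining 3 genes did not reach 1 FPKM in at least 2 libraries and were not tested. PIP2-1 (LOC_Os07g26690) is listed at 0 in every library for both of its transcript models. PIP1-1 (LOC_Os02g44630), also known as RWC1, has 3 models, of which 2 are listed at 0 throughout, and its locus value ran from 0.0489 to 0.973 FPKM, highest in ostie1-1 stage 10 replicate 2. Of all loci with several models 19.5% were tested, against 40.4% of loci with 1 model. Whether reads shared by several models of a locus were left out of the counts was not tested, and the values of PIP2-1, PIP1-1 and PIP2-2 (4 models, 2 at 0 throughout) are therefore not read as low expression. PIP2-3 (LOC_Os04g44060, known mainly from roots) has 1 model and was listed at 0 in 5 libraries, with its highest value, 1.09 FPKM, in WT stage 10 replicate 3.

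The table gives no read counts, but for the low genes the FPKM of a model, corrected for relative depth, were whole multiples of 1 common step within a relative tolerance of 1e-05. A step stands for at least 1 fragment. PIP2-3 stood at 20 steps in WT stage 10 replicate 3, at 7 and 1 in WT stage 12 replicates 3 and 1, at 13 and 6 in ostie1-1 at stage 12, and at 1 step in ostie1-1 stage 10 replicate 2. PIP2-4 stood at 4 to 9 steps in ostie1-1 at stage 10 and at 361 in WT stage 10 replicate 3. PIP2-5 stood at 2, 22 and 12 steps in ostie1-1 at stage 10. If a step is 1 fragment, counting error alone is large for these values. PIP1-3 rested on more, with 807, 548 and 777 steps in WT at stage 10, 121, 154 and 102 in ostie1-1 at stage 10, 1466, 1108 and 1580 in WT at stage 12, and 730 and 241 in ostie1-1 at stage 12.

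PIP2-4, PIP2-5 and PIP2-1 are immediate neighbours on chromosome 7, with 0 protein-coding genes between them in the RefSeq annotation of assembly ASM3414082v1. All 10 names were found in RefSeq on the chromosome that the locus ID states. The files use the IRGSP-1.0 genome, so no coordinates are given. PIP2-4 was higher in both stage 12 mutant libraries (3.91 and 0.562 FPKM) than in any stage 10 mutant library, as were 24.4% of all tested loci. PIP2-5 overlapped between these groups. Neighbouring genes of 1 subgroup have similar sequences, and how reads that match several of them were counted is not stated.

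PIP2-7 took a larger share of the listed PIP FPKM in each mutant library than in any WT library of its stage. It held 82.7%, 95.4% and 97.7% of the summed FPKM in ostie1-1 at stage 10, against 70.1%, 77.1% and 46.7% in WT. The shares at stage 12 were 78.1% and 81.1% in ostie1-1 and 62.7%, 56.7% and 31.8% in WT. The 3 PIP1 genes together held 15.4%, 3.88% and 1.88% in ostie1-1 at stage 10, against 28.4%, 21.8% and 48.2% in WT, and 18.9% and 16.9% against 33.1%, 40.7% and 65.2% at stage 12. These shares were formed after the values were seen and are a description, with no test.

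**Figure D2:**
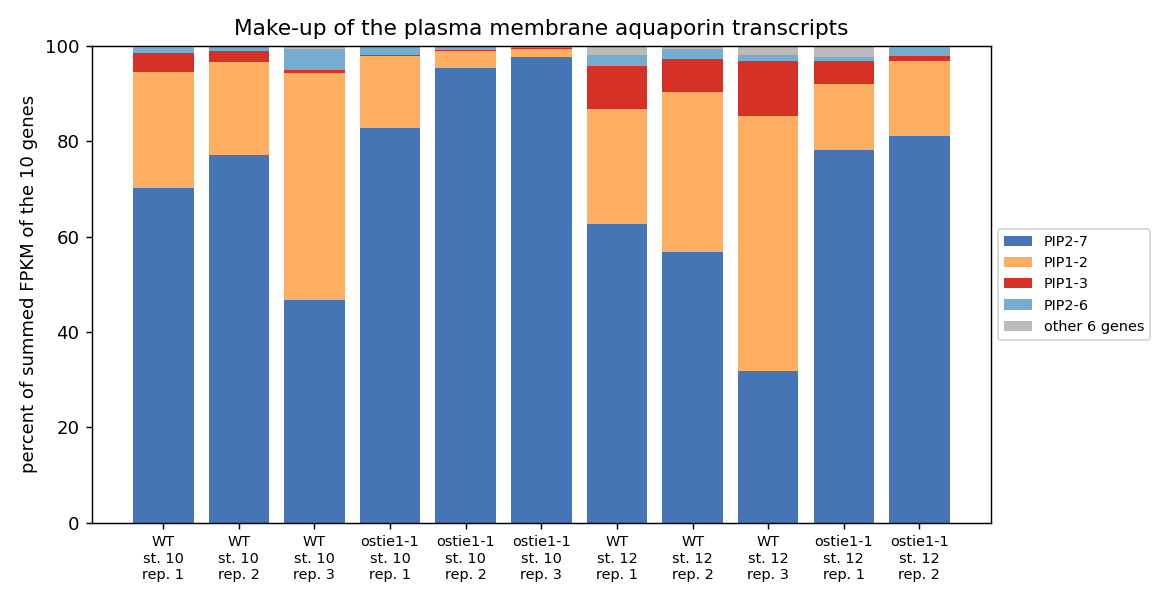
Share of each gene in the summed FPKM of the 10 PIP genes (percent, vertical axis from 0 to 100) in each of the 11 libraries, with stage and replicate abbreviated st. and rep. PIP2-7 takes 82.7% to 97.7% in ostie1-1 at stage 10, and PIP1-3 takes 6.92% to 11.6% in WT at stage 12.

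The total itself was unequal. The 10 genes summed to 551, 642 and 3675 FPKM in WT at stage 10, to 1350, 1923 and 1987 FPKM in ostie1-1 at stage 10, to 465, 460 and 355 FPKM in WT at stage 12, and to 339 and 542 FPKM in ostie1-1 at stage 12. Leaving aside WT stage 10 replicate 3, the stage 10 mutant libraries had the highest sums, and at stage 12 the genotypes overlapped. The PIP sum was 0.0401% to 0.454% of all FPKM of a library, highest in WT stage 10 replicate 3.

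The first comparison asks which PIP genes differed between ostie1-1 and WT at stage 10. PIP1-3 fell in the mutant and was the 1 of 7 tested genes that passed. Its mean was 17.6 ± 3.53 FPKM in WT and 3.29 ± 0.489 FPKM in ostie1-1 (SD, n = 3 each), a ratio of 5.36. Tests used limma on log2(FPKM + 1) after scaling each library, a fit over all 21279 loci that reached 1 FPKM in at least 2 libraries, with Benjamini-Hochberg adjusted p below 0.05 as the threshold. The log2 fold change of PIP1-3 was -1.98 (SE 0.38, 95% interval -2.81 to -1.16, adjusted p = 0.0186). Of all tested loci, 0.555% passed as lower in ostie1-1 at stage 10 and 2.90% passed in either direction.

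PIP1-3 also passed as lower without WT stage 10 replicate 3, where 15.0% of all tested loci did so. In that library PIP1-3 was at 17.6 FPKM as deposited, between the other 2 WT values, while all 6 other tested PIP genes were above both. On the scaled levels of the test PIP1-3 too was above both, at 24.3 against 17.7 and 12.1. Without that library its log2 fold change was nearer to 0, at -1.75 (SE 0.37, adjusted p = 0.00564). Leaving out WT stage 10 replicate 1 (adjusted p = 0.0795) ended the call, as did leaving out the mutant's stage 10 replicate 2 (adjusted p = 0.0729) or 3 (adjusted p = 0.0732) and fitting the 6 stage 10 libraries alone (adjusted p = 0.0845). The log2 fold change then ran from -2.06 to -1.85. Of the 6 green tissue markers 4 were tested and 0 of 4 passed. An unadjusted p under 0.05 in limma was reached by 3 of 4, and by 3996 of 21279 loci. The 4 had a median log2 fold change of -3.35 (-1.68 without WT stage 10 replicate 3). The summed level of all 6 markers was 19.3 to 30.0 FPKM in ostie1-1 and 71.3 to 1424 FPKM in WT. Their part in the result was not tested.

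For the other 6 tested genes no difference was resolved at stage 10. PIP1-2 had a log2 fold change of -1.81 (95% interval -4.18 to 0.56), PIP2-4 one of -1.22 (-3.00 to 0.57), PIP2-5 one of -0.89 (-1.86 to 0.07), PIP2-6 one of -0.42 (-2.96 to 2.11), PIP2-2 one of 0.03 (-1.32 to 1.38) and PIP2-7 one of 1.36 (-0.10 to 2.81). The widest intervals were those of PIP2-6 and PIP1-2, whose WT libraries lay farthest apart on the log2(FPKM + 1) scale of the test. The values of PIP2-4 and PIP2-5 in ostie1-1 lay below all WT values as deposited, where 6.67% of all tested loci did so in this direction, but after scaling the groups overlapped for both. PIP1-3 was lower without overlap on both scales, the scaled share over all loci being 8.36%.

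Without WT stage 10 replicate 3 PIP2-7 and PIP2-2 passed as higher in ostie1-1. The log2 fold change was 2.25 for PIP2-7 (SE 0.41, adjusted p = 0.00322) and 0.96 for PIP2-2 (SE 0.27, adjusted p = 0.0224). With that library left out, PIP2-2 reached 1 FPKM in mutant libraries alone, so it would meet the filter only through them. The PIP2-2 model with the most steps stood at 3 and 4 in WT stage 10 replicates 1 and 2. In ostie1-1 at stage 10 it stood at 25, 27 and 23. The call for PIP2-2 is therefore not read as a rise. PIP2-6 changed sign to 1.30 (SE 0.57, adjusted p = 0.103). PIP1-2 was then at -0.33 (SE 0.69), PIP2-5 at -0.39 (SE 0.34) and PIP2-4 at -0.06 (SE 0.48), each nearer to 0 than with all libraries. Then 3 of 7 genes passed, 2 higher and 1 lower, while 33.5% of all tested loci passed in either direction, or 18.6% as higher and 15.0% as lower. The marker lists moved too in that fit, where 3 of 8 tapetum genes rose and 2 of 4 tested green tissue genes fell, and their part in the result was not tested. On the scaled levels this library lay above both other WT stage 10 libraries in 7 of 7 tested PIP genes, against 46.8% of all tested loci. Its FPKM were 26.2 times the higher of the other 2 for PIP2-2, 25.3 times for PIP2-6, 24.5 times for PIP2-4, 3.47 times for PIP2-7 and 2.47 times for PIP2-5, but 0.833 times for PIP1-3.

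**Figure D3:**
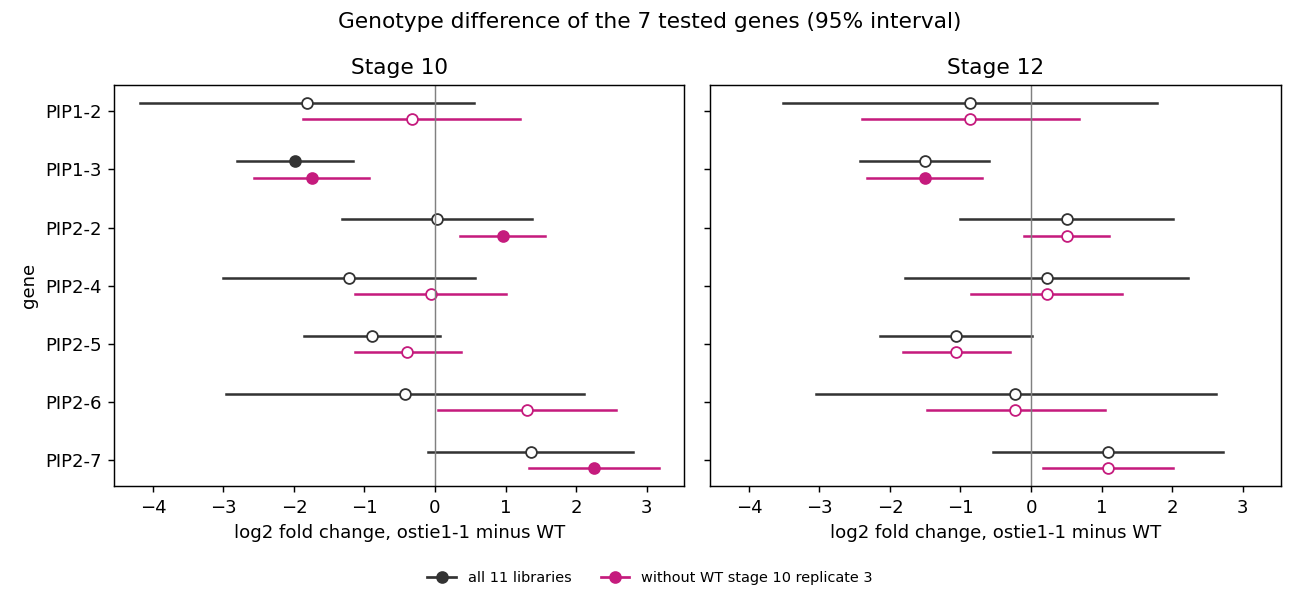
Log2 fold change of ostie1-1 minus WT (horizontal axis) for the 7 tested PIP genes at stage 10 and stage 12, with 95% intervals, for all 11 libraries (dark) and without WT stage 10 replicate 3 (pink). Filled points passed at an adjusted p below 0.05. PIP1-3 is at -1.98 and -1.75 at stage 10 and at -1.51 in both fits at stage 12.

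At stage 12 none of the 7 tested genes passed with limma, and PIP1-3 was the 1 gene of 7 with an unadjusted p below 0.05. Over all tested loci, 4191 of 21279 reached such a p. The WT mean was 38.2 ± 5.53 FPKM (SD, n = 3) and the mutant mean 11.1 ± 7.53 FPKM (n = 2), with a difference of -1.51 on the log2 scale (SE 0.42, 95% interval -2.43 to -0.59, adjusted p = 0.0793). Of all tested loci 3.52% passed. PIP1-3 passed with FPKM left unscaled (-1.84, adjusted p = 0.0407) and with TPM, FPKM rescaled to the same sum in each library (-1.96, adjusted p = 0.0379), where the median of all loci shifted from 0.05 to -0.21 and -0.30. It also passed without WT stage 10 replicate 3 (adjusted p = 0.0220), where 16.5% of all loci passed and 5.50% passed as lower. That library enters this comparison through the shared variance alone, and the log2 fold change stayed at -1.51 (SE 0.37). With 1 of the 2 stage 12 mutant libraries left out, that group is 1 library, assumed to vary like the other groups. The log2 fold change of PIP1-3 was then -2.12 without replicate 1 and -0.89 without replicate 2. The 2 mutant libraries differed from each other, at 16.4 and 5.76 FPKM. The summed green tissue markers were at 46.0 and 8.72 FPKM in these libraries and at 113 to 147 FPKM in WT, and their part was not tested.

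Among the other genes at stage 12, PIP2-5 had a log2 fold change of -1.06 (95% interval -2.14 to 0.02), PIP1-2 one of -0.86 (-3.51 to 1.79), PIP2-6 one of -0.22 (-3.05 to 2.62), PIP2-4 one of 0.22 (-1.78 to 2.22), PIP2-2 one of 0.51 (SE 0.69) and PIP2-7 one of 1.09 (-0.54 to 2.72). On deposited FPKM, PIP1-3, PIP1-2 and PIP2-5 were lower in both mutant libraries than in all WT libraries. That 3 of 7 genes did so is near the 31.8% of all tested loci that did. After scaling, the groups of PIP1-2 overlapped and those of PIP1-3 and PIP2-5 did not, against 20.4% of all loci. PIP2-7 was then higher without overlap, against 25.8%.

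The second pair of comparisons concerns development from stage 10 to stage 12. In WT no PIP gene passed (0 of 7 by limma, against 2.62% of all loci). An unadjusted p below 0.05 was reached by 2995 of 21279 loci, among them 2 of the 7 PIP genes. These were PIP1-3, with a mean of 17.6 FPKM at stage 10 and 38.2 FPKM at stage 12 (log2 fold change 0.86, 95% interval 0.03 to 1.68, adjusted p = 0.334), and PIP2-7, with 866 ± 739 FPKM at stage 10 and 222 ± 95.5 FPKM at stage 12 (-1.97, 95% interval -3.43 to -0.52, adjusted p = 0.178). Both had stage groups that did not overlap, PIP1-3 higher and PIP2-7 lower at stage 12, as did 13.1% and 6.75% of all tested loci in these directions. Without WT stage 10 replicate 3 0 of 7 passed with limma, against 2.44% of all loci. PIP1-3, PIP2-5 and PIP2-7 were the 3 with an unadjusted p below 0.05, which 3023 of 21279 loci reached in that fit. PIP2-7 then had -1.08 (adjusted p = 0.253) and PIP1-3 1.09 (adjusted p = 0.186).

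In ostie1-1 0 of 7 passed by limma, against 10.7% of all loci. An unadjusted p below 0.05 was again reached by PIP1-3 and PIP2-7, 2 of 7, and by 5252 of 21279 loci. PIP1-3 had means of 3.29 and 11.1 FPKM at stages 10 and 12 (log2 fold change 1.33, 95% interval 0.41 to 2.25, adjusted p = 0.0677), and PIP2-7 had 1630 ± 448 and 352 ± 124 FPKM (-2.24, 95% interval -3.87 to -0.61, adjusted p = 0.0812). Neither gene overlapped between the stages, as was so for 24.4% of all loci in the higher and 20.1% in the lower direction. The 8 tapetum markers, of which the lipid transfer protein gene C6 made up most, summed to 5674 to 13950 FPKM at stage 10 and to 1214 and 1313 FPKM at stage 12, and their part in the result was not tested. PIP2-7 passed as lower at stage 12 with unscaled FPKM (adjusted p = 0.0463), TPM (adjusted p = 0.0397) and quantile normalization (adjusted p = 0.0357). It also passed with the ostie1-1 libraries fitted alone (adjusted p = 0.0286). Shares of all loci in those fits are not given here, so these calls are not set against a background. In the main fit 10.7% of all loci passed and PIP2-7 did not. Without WT stage 10 replicate 3, which enters this comparison through the shared variance alone, PIP1-3 rose (adjusted p = 0.0263) and PIP2-7 fell (adjusted p = 0.00427), and 22.5% of all loci passed, 13.3% higher and 9.23% lower. With ostie1-1 stage 12 replicate 2 left out PIP1-3 was at 1.95, but stage 12 is then 1 library whose spread is taken from the other groups. PIP2-4 was likewise higher without overlap, at 4 to 9 steps per library at stage 10 and 148 and 20 at stage 12 (log2 fold change 1.21, 95% interval -0.79 to 3.21).

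The genotype effect was not shown to differ between the stages for any PIP gene. With limma 0 of 7 passed the test of that difference, as did 0.0188% of all loci. An unadjusted p below 0.05 was reached by 0 of 7, against 1153 of 21279 loci. The differences ran from -0.27 to 1.44 on the log2 scale, and the smallest unadjusted p was 0.264, for PIP2-4. With WT stage 10 replicate 3 left out 0 of 7 passed too (0 at an unadjusted p below 0.05, against 3092 of 21279 loci). But 5 of 7 differences were then negative, against 2 of 7 with all libraries. They ran from -1.52 for PIP2-6 to 0.28 for PIP2-4, and the smallest unadjusted p was 0.0754, for PIP2-7.

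The stage 10 mutant had the lowest PIP1-3 and the highest PIP2-7 group mean, and WT at stage 12 the highest PIP1-3 and the lowest PIP2-7 mean. The ratio of PIP2-7 to PIP1-3 FPKM was 350, 480 and 680 in ostie1-1 at stage 10, and 18.2, 35.1 and 97.4 in WT at stage 10. At stage 12 it was 16.1 and 76.3 in ostie1-1, and 7.04, 8.20 and 2.73 in WT. The mutant libraries were above the WT libraries at each stage, and WT stage 10 replicate 3 was the highest WT library. The ratio is free of the scaling between libraries. It was chosen after the values were seen and is given as a description.

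**Figure D4:**
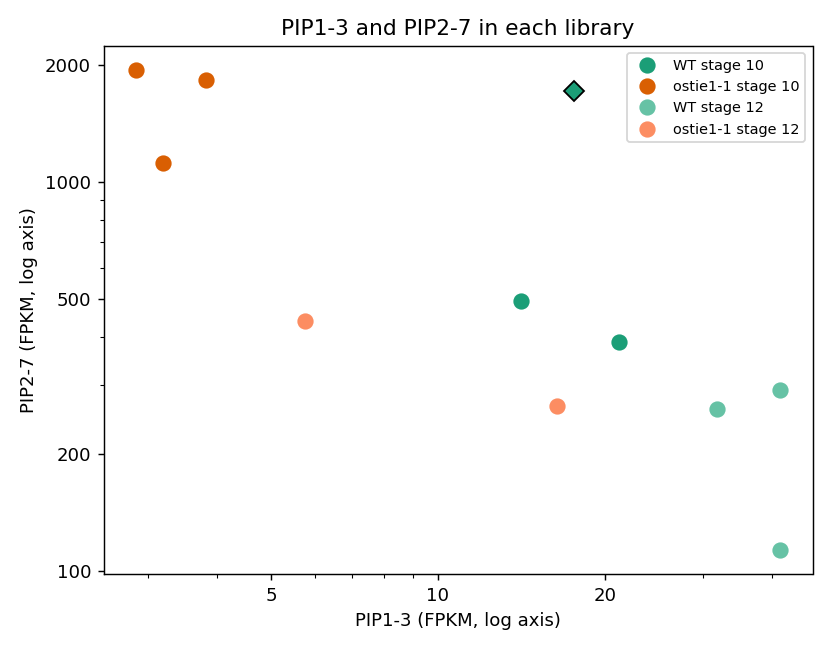
FPKM of PIP1-3 (horizontal, log axis) and PIP2-7 (vertical, log axis) in each of the 11 libraries. Each point is a library, and the outlined diamond is WT stage 10 replicate 3 (17.6 and 1717 FPKM). The ostie1-1 stage 10 libraries lie at the upper left (2.85 to 3.82 and 1116 to 1941 FPKM) and the WT stage 12 libraries at the lower right (31.8 to 41.4 and 113 to 292 FPKM).

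Other aquaporins were read from a list of 15 loci, 11 of them tested, with tonoplast (TIP), NIP and SIP genes and PIP2-8. PIP2-8 did not pass the filter, with at most 1.19 FPKM. In the stage 10 comparison of genotypes 0 of 11 passed, 1 having reached an unadjusted p under 0.05 in limma, against 3996 of 21279 loci. Their median log2 fold change was -0.06, against -0.01 for all loci. Without WT stage 10 replicate 3, 2 rose (TIP4-2 and TIP4-3) and 1 fell (NIP3-1), in a fit where 33.5% of all loci passed. At stage 12, 1 of 11 rose and none fell, with a median of 0.99 against 0.05 for all loci, and 3.22% of all loci rose. The riser was TIP2-1 (LOC_Os02g44080), a tonoplast channel, at 1.03, 0.646 and 1.62 FPKM in WT. The mutant's libraries held 15.8 and 3.57 FPKM of it, a rise of 2.30 on the log2 scale (SE 0.53, adjusted p = 0.0391). With WT stage 10 replicate 3 left out, TIP4-2 and NIP2-1 passed as well, which made 3 of 11 in a fit where 16.5% of all loci passed and 2331 of 21279 rose.

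From stage 10 to 12, 1 of 11 other aquaporins rose in WT and 4 of 11 in ostie1-1, and none fell, where 2.11% and 7.78% of all loci rose. The counts were 2 and 7 of 11 without WT stage 10 replicate 3, where 407 of 21279 loci rose in WT and 13.3% rose in ostie1-1. TIP5-1 (LOC_Os04g46490), of a tonoplast class that Arabidopsis expresses in pollen, rose in WT from 1.26, 0.0688 and 1.27 FPKM to 15.8, 10.7 and 40.0 FPKM (log2 fold change 3.25, adjusted p = 0.0196). In ostie1-1 it rose by 3.78 (adjusted p = 0.00412). TIP2-2 (LOC_Os06g22960) rose by 3.91 (adjusted p = 0.00851), NIP2-1 (LOC_Os02g51110), the silicon influx channel Lsi1, by 3.35 (adjusted p = 0.0148), and TIP2-1 by 2.60 (adjusted p = 0.00983). Late pollen markers moved with these rises, with summed levels of 41.2 to 185 FPKM at stage 10 and 2383 to 4014 FPKM at stage 12 in ostie1-1, and 60.9 to 200.1 and 1264 to 2840 FPKM in WT. Their part was not tested.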

How the data were processed

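The authors deposited 1 table of FPKM for 66338 MSU transcript models in 11 libraries. The submitters' processing notes name HISAT2 2.2.0, featureCounts and the IRGSP-1.0 genome. Filters, strand and the treatment of shared reads are not given in the sources used here. Deposited FPKM were summed per locus (55986 loci), and FPKM in the text are unscaled. For tests, libraries were divided by median-of-ratios factors (0.726 to 1.31), loci with at least 1 FPKM in at least 2 libraries were kept (21279), and log2(FPKM + 1) was fitted in limma 3.58.1 (R 4.3.3, trended variance) with 1 mean per group. Such fold changes understate those of low genes. Steps came from relative depths estimated on loci below 0.3 FPKM. The absolute depth is unknown, so no counting interval is given. The fit was tested on simulated data.

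Every PIP gene is named. From the other lists up to 4 members that passed are named per comparison, and 3 loci most correlated with each PIP gene that passed a genotype comparison. Members and lists were proposed with earlier results of these data known, although the rule for the 10 genes names locus IDs and uses no expression value. The names of the listed loci rest on general knowledge, not on an annotation. The labels number biological replicates without naming plants, so the spread behind a p-value may be technical.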

Additional observations from a re-analysis of the deposited data

How the results depend on the processing

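With alternative settings (unscaled FPKM, TPM, quantile normalization, a pseudocount of 0.1, no filter, the highest transcript model, the replicate block, only the 2 groups compared), 207 results of single PIP genes kept direction and side of the threshold, 1 lost and 6 gained the call, and 10 changed sign. With 1 library left out the counts were 281, 3, 7 and 17. At stage 10 the number of PIP genes passed was 1, with 0 when only the 2 groups were fitted, and ranged from 0 to 3 with a library left out. At stage 12 it was 0, with 1 for unscaled FPKM and for TPM, and 0 to 1 with a library left out. From stage 10 to 12 in ostie1-1 it was 0, with 1 for unscaled FPKM, TPM, quantile normalization and only the 2 groups, and 0 to 2 with a library left out. In WT and for the difference between stages it was 0 throughout. The cause was not tested.

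None of the values that changed sign had passed with all libraries. At stage 10 PIP2-2 was -0.11 with quantile normalization and -0.04 with the highest model. At stage 12 PIP2-4 was -0.05 with TPM and PIP2-6 0.13 with the replicate block. From stage 10 to 12 in WT PIP2-4 was 0.03 unscaled, 0.07 with TPM and 0.19 with the pseudocount of 0.1. In ostie1-1 PIP2-2 was -0.02 with quantile normalization and -0.01 with that pseudocount, and PIP1-2 was 0.02 with the block. With a library left out the ranges were -0.45 to 0.96 (PIP2-2) and -1.31 to 1.30 (PIP2-6) at stage 10, and -0.59 to 1.03 (PIP2-4) and -1.02 to 0.58 (PIP2-6) at stage 12. For stages in WT they were -2.04 to 0.20 (PIP1-2), -0.92 to 0.48 (PIP2-2), -0.82 to 0.93 (PIP2-4) and -2.37 to 0.24 (PIP2-6), and in ostie1-1 -1.01 to 0.46 (PIP1-2), -0.38 to 0.45 (PIP2-2) and -0.05 to 0.45 (PIP2-5).

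Over all loci, 618 passed at stage 10, with 331 under the replicate block and 103 with only the 2 groups. At stage 12 750 passed, with 499 for TPM, 284 with the pseudocount of 0.1, 1166 without a filter and 1717 with only the 2 groups. For stages in WT 558 passed, with 62 without a filter and 203 with only the 2 groups. For the difference between stages 4 passed, with 7 for unscaled FPKM, 9 with quantile normalization, 193 without a filter and 0 with TPM, the pseudocount of 0.1 or the block. With a library left out, counts ran from 157 to 7134 at stage 10, the highest without WT stage 10 replicate 3, from 293 to 3501 at stage 12, from 9 to 576 for stages in WT, from 818 to 4795 for stages in ostie1-1 (2282 with all libraries), and from 0 to 18 for the difference between stages. Same-numbered libraries of the genotypes had deviations correlated at -0.28 to -0.10 at stage 10 and at -0.02 and 0.12 at stage 12. With 2 or 3 libraries per group these values cannot show whether same-numbered libraries were paired, and the labels do not say. With the block PIP1-3 passed at stage 10 (adjusted p = 0.0389).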

Other observations

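Dehydration proteins, of the dehydrin and late embryogenesis abundant kind that seeds and drying tissues accumulate, were read from a list of 6 loci, 5 of them tested. With limma 0 of 5 passed at either stage between the genotypes, with medians of -0.16 at stage 10 and 0.43 at stage 12. An unadjusted p below 0.05 was reached by 0 of 5, against 3996 of 21279 loci at stage 10 and 4191 at stage 12. At stage 10 1 of 5 passed as higher when WT stage 10 replicate 3 was left out, where 18.6% of all loci did so. This was RAB16A (LOC_Os11g26790), which without that library reached 1 FPKM in mutant libraries alone. It would then meet the filter only through them, so the call is not read as a rise. Between the stages 0 of 5 passed in either genotype, 1 having reached an unadjusted p below 0.05 in WT and 0 in ostie1-1. Of 21279 loci, 2995 did so in WT and 5252 in ostie1-1. DHN1 (LOC_Os02g44870), the most abundant of them, measured 36.2, 20.6 and 812 FPKM in WT at stage 10 and 86.2, 84.3 and 69.5 FPKM in ostie1-1, the high value lying in WT stage 10 replicate 3. At stage 12 it measured 239, 66.8 and 107 FPKM in WT and 492 and 68.4 FPKM in ostie1-1, and the groups overlapped.

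The 3 loci outside the PIP family with the pattern most like PIP1-3 over the 11 libraries were LOC_Os06g22394 (Pearson r 0.966), LOC_Os01g50400 (0.959) and LOC_Os06g39040 (0.954). The correlations describe log2 levels over 4 groups and carry no test. Their stage 10 log2 differences of ostie1-1 from WT were -1.58, -1.13 and -1.18 and their stage 12 differences -0.84, -1.45 and -0.55. As the loci were chosen for likeness to PIP1-3 in these libraries, the differences are descriptions, with no test.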
